A study of Schizosaccharomyces pombe with 5 samples.

Results

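The phosphate response of the fission yeast Schizosaccharomyces pombe was described here through 8 listed genes of phosphate acquisition and of the Pho7 pathway. A gene was taken where the platform annotation gave its symbol to a probe. This gave 6 of the 8 genes, tgp1, vtc4, pho4, pho8, pho7 and csk1, each with 2 oligonucleotides, so 12 of 9858 oligonucleotides and 6 of 4907 genes with a value on every array. No probe carried the symbol pho1. The pho84 symbol stood only on a probe pair with 2 annotations, SPBP4G3.01 and pho84, and the RefSeq gene table lists SPBP4G3.01 as a synonym of pho84. That pair, called the pho84 probe pair below, is described with the 6 genes but left out of their counts.

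RNA was measured on 5 spotted arrays read in 2 colours, each with wild-type cDNA in Cy3. Per the labels, 3 arrays carried cDNA of the tra1-1 mutant in Cy5, and 2 carried wild-type cDNA in Cy5 as well, a self-self hybridisation. All cells grew at 30 degrees, and the labels give neither the growth medium nor what tra1-1 changes in tra1, the gene of a large scaffold protein of the SAGA coactivator related to human TRRAP. Every value is a log ratio, read here as log2 of the Cy5 signal divided by the Cy3 signal after setting each array's median to 0. The labels make that direction likely without stating it, and turning it would turn every sign below. A ratio says nothing of how abundant a transcript is. The design text calls the repeats independent without naming cultures, so p-values cover the spread among these 5 arrays, which may be partly technical.

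The arrays did not divide by their labels. For tra1 the arrays labelled tra1-1 replicates 1, 2 and 3 gave 0.04, 0.02 and -2.21, against -1.41 and -2.04 on those labelled wild type replicates 1 and 2. Both self-self arrays therefore carried a low tra1 ratio, against their label, and the array labelled tra1-1 replicate 3 shared it. Over genes, which are not independent replicates, that array correlated with r = 0.473 and 0.471 with the other arrays labelled tra1-1 and with r = 0.72 and 0.737 with those labelled wild type. Groups below keep their labels, and results are given with all 5 arrays and without the array labelled tra1-1 replicate 3. That array was singled out by its values in these same data. Leaving it out widens many differences and narrows the spread, so p-values without it are descriptive and are no independent support. Directions between the groups carry this doubt. Ratios at least 1 from 0 were seen for 8, 17 and 168 genes on tra1-1-labelled replicates 1, 2 and 3, against 112 and 96 on the wild-type-labelled ones, and 9695 to 9832 of 9858 oligonucleotides had a value.

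In fission yeast, phosphate starvation switches on a small regulon through the zinc-cluster transcription factor Pho7. Its targets are pho1, which encodes a secreted acid phosphatase, pho84, which encodes a phosphate transporter, and tgp1, which encodes a transporter of glycerophosphodiesters. When phosphate is plentiful, long non-coding RNAs transcribed upstream of these genes keep them low, and the balance depends on how RNA polymerase II terminates and on inositol pyrophosphates. Phosphate taken up in excess is stored in the vacuole as polyphosphate.

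On the wild-type-labelled arrays the pho84 probe pair and nc-pho1, a non-coding RNA overlapping pho1, had high ratios, and tgp1 had low ones. On tra1-1-labelled replicates 1 and 2 all 3 were near 0. Between the labelled groups 0 of these differences passed with all 5 arrays, and all 3 passed without the array labelled tra1-1 replicate 3. Of all genes, 0% passed with all 5 arrays and 4.18% without that array. Only tgp1 of these 3 enters the gene counts below, since the pho84 probe pair and nc-pho1 are left out of them. nc-pho1 is neither a member nor in a list, and may have been named with its values known. The locus was not high throughout, since prt2, the non-coding RNA upstream of pho84, stood at -0.36 and -0.67 on wild-type-labelled arrays. The pho84 probe pair stood at -0.07, 0.02 and 0.95 on tra1-1-labelled replicates 1, 2 and 3, against 1.30 and 1.11 on those labelled wild type replicates 1 and 2. The groups did not overlap, but the third array labelled tra1-1 lay close to the wild-type-labelled ones and far from its own group. The means were 0.30 ± 0.57 (SD, n = 3) for the arrays labelled tra1-1 and 1.20 ± 0.14 (SD, n = 2) for those labelled wild type. The difference of -0.90 ± 0.27 (SE) did not pass limma's test over all genes (adjusted p = 0.625). Without the array labelled tra1-1 replicate 3 it was -1.23 ± 0.16 (SE, limma adjusted p = 0.000117), a ratio 2.34-fold higher on wild-type-labelled arrays. The ratio on those self-self arrays also differed from 0 (limma adjusted p = 0.00951, all 5 arrays), although the same strain is named for both dyes.

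Beside pho84 lies nc-pho1, the long non-coding RNA also called prt, which is transcribed into the pho1 gene and keeps it low in cis. nc-pho1 and pho1 overlap in the reference gene table, and the position of the oligonucleotides is not given in the sources used here, so signal of the RNAs cannot be told apart at this probe pair. Its ratio was 0.25, 0.16 and 2.42 on tra1-1-labelled replicates 1, 2 and 3, against 2.33 and 2.21 on the wild-type-labelled ones. Only replicates 1 and 2 of the tra1-1 label were near 0, and the groups overlapped. Counted from the highest of 4907 genes, nc-pho1 ranked 7 and 5 on wild-type-labelled arrays and 4 on that labelled tra1-1 replicate 3. Were the ratio turned, these ranks would be 4901, 4903 and 4904. Its mean on the wild-type-labelled arrays was 2.27 ± 0.09 (SD, n = 2), a 4.83-fold ratio (limma adjusted p = 0.0106 against 0). That call was lost with a robust prior (limma adjusted p = 0.142). The self-self arrays, labelled wild type in both dyes, thus carried some of their highest ratios here. The difference between the labelled groups was -1.33 ± 0.53 (SE, limma adjusted p = 0.685), and -2.07 ± 0.16 (SE, limma adjusted p = 3e-07) without the array labelled tra1-1 replicate 3.

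tgp1 was the member with the smallest p between the groups. Its ratio was 0.09, 0.04 and -0.32 on tra1-1-labelled replicates 1, 2 and 3, against -0.57 and -0.92 on the wild-type-labelled ones. All 3 arrays labelled tra1-1 were above both others, with replicate 3 between its own group and the wild-type-labelled arrays. That middle place is a mean of unlike oligonucleotides, at -0.642 and -0.004. On wild-type-labelled arrays the first stood at -0.81 and -0.779, and the second at -0.334 and -1.065. The mean was -0.06 ± 0.23 (SD, n = 3) on tra1-1-labelled arrays and -0.75 ± 0.25 (SD, n = 2) on the wild-type-labelled ones. The difference of 0.68 ± 0.19 (SE) had an unadjusted p of 0.00449 in limma and an adjusted p of 0.625. Without the array labelled tra1-1 replicate 3 it was 0.81 ± 0.17 (SE, limma adjusted p = 0.00801), a 1.75-fold higher ratio on tra1-1-labelled arrays. On the arrays labelled wild type the tgp1 ratio was below 0 (limma adjusted p = 0.0136), and tgp1 ranked 4674 and 4846 from the highest of 4907 genes, or 234 and 62 were the ratio turned.

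**Figure D1:**
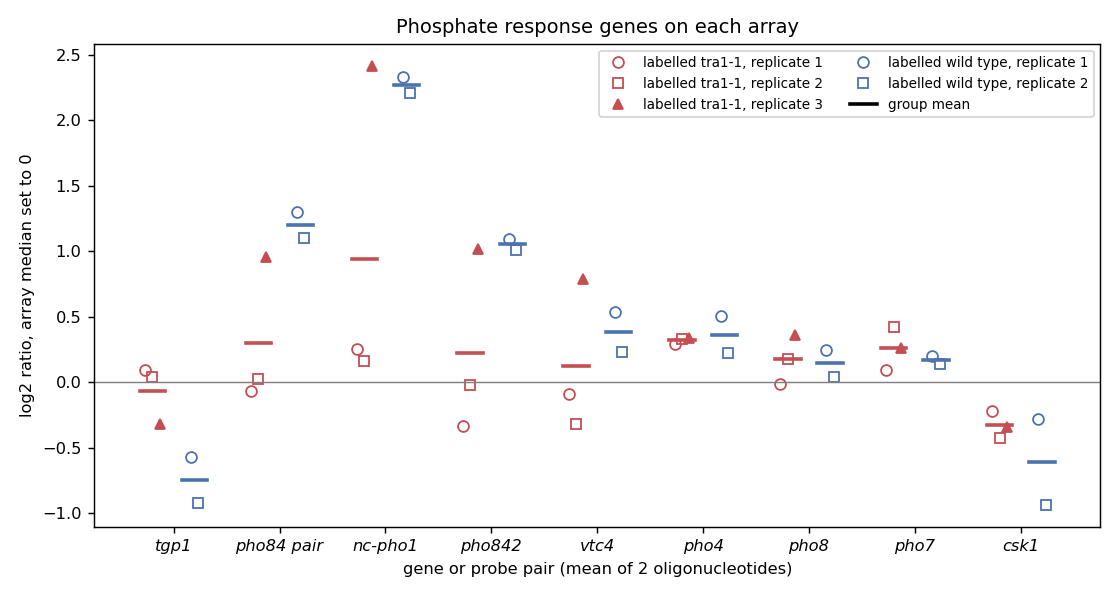
Log2 ratio (array median at 0) of 9 genes or probe pairs, each point 1 array, red for arrays labelled tra1-1 (left) and blue for those labelled wild type (right), with a bar at the group mean. Filled triangles mark the array labelled tra1-1 replicate 3, which lies near the wild-type-labelled arrays for the pho84 probe pair (0.95), nc-pho1 (2.42) and pho842 (1.01).

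Phosphate storage was read through vtc4, the catalytic subunit of the vacuolar polyphosphate polymerase. vtc4 stood at -0.09, -0.32 and 0.79 on tra1-1-labelled replicates 1, 2 and 3, against 0.54 and 0.23 on the wild-type-labelled ones. It was highest on the array labelled tra1-1 replicate 3, and the groups overlapped. The mean was 0.13 ± 0.59 (SD, n = 3) on tra1-1-labelled arrays and 0.39 ± 0.21 (SD, n = 2) on the wild-type-labelled ones. The difference was -0.26 ± 0.29 (SE, limma adjusted p = 0.877), and -0.59 ± 0.17 (SE, limma adjusted p = 0.0616) without that array. Each vtc4 oligonucleotide had its 2 lowest ratios on the arrays labelled tra1-1 replicates 1 and 2. Such an order is common, since without replicate 3 the groups did not overlap, in either direction, in 47.6% of all genes. The first vtc4 oligonucleotide stood at -0.37, -0.80 and 0.74 on tra1-1-labelled arrays, against 0.56 and 0.00 on the wild-type-labelled ones. The second stood at 0.19, 0.16 and 0.84, against 0.52 and 0.47. Other subunit genes of the polymerase complex, vtc2 and nrf1, were picked after their values were seen. vtc2 differed by -0.13 ± 0.16 (SE, limma adjusted p = 0.895). nrf1, whose product is the Vtc1 subunit, stood at -0.05 on all 3 arrays labelled tra1-1, against 0.26 and 0.11 on the wild-type-labelled ones. The nrf1 groups did not overlap, but its difference of -0.23 ± 0.15 (SE) did not pass (limma adjusted p = 0.766). Its oligonucleotides differed in opposite directions, by -0.63 and 0.16.

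No phosphatase gene among the members passed a test between the groups. pho4, which encodes an acid phosphatase repressed by thiamine rather than by phosphate, stood at 0.29, 0.33 and 0.34 on tra1-1-labelled arrays and at 0.50 and 0.22 on the wild-type-labelled ones. The tra1-1-labelled values lay between the wild-type-labelled ones, with a difference of -0.04 ± 0.16 (SE, limma adjusted p = 0.974) and -0.05 without the array labelled tra1-1 replicate 3 (limma adjusted p = 0.903). pho8, related to the vacuolar alkaline phosphatase of budding yeast, had ratios of -0.01, 0.18 and 0.36 on tra1-1-labelled arrays and of 0.24 and 0.04 on the wild-type-labelled ones. Its groups overlapped, and the difference was 0.03 ± 0.17 (SE, limma adjusted p = 0.989) and -0.06 without that array (limma adjusted p = 0.893). The standard errors are wide beside these differences. With every array kept, no gene at all passed this test, and tgp1 did not at a difference of 0.68 ± 0.19 (SE, limma adjusted p = 0.625). Changes of pho4 or pho8 well beyond the differences seen here, in either direction, could therefore have been missed.

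Neither regulator gene, pho7 or csk1, passed a test between the groups. pho7, the gene of the transcription factor itself, stood at 0.09, 0.42 and 0.26 on tra1-1-labelled arrays and at 0.20 and 0.14 on the wild-type-labelled ones, with a difference of 0.09 ± 0.17 (SE, limma adjusted p = 0.94), or 0.08 without the array labelled tra1-1 replicate 3. Its values overlapped between groups and ranged over 0.33 in all. csk1, which encodes a kinase that activates cyclin-dependent kinases and whose loss raises pho1, had ratios of -0.22, -0.42 and -0.34 on tra1-1-labelled arrays. On those labelled wild type it was -0.28 and -0.94, so the group was split by 1 low array. The csk1 difference was 0.28 ± 0.20 (SE, limma adjusted p = 0.799), 0.29 without the array labelled tra1-1 replicate 3 and -0.04 without the array labelled wild type replicate 2. Its ratio on wild-type-labelled arrays was below 0 (limma adjusted p = 0.0349), a call lost without the arrays labelled tra1-1 replicate 1 (adjusted p = 0.054) or 2 (0.0509), without either wild-type-labelled array and on the first oligonucleotide alone (0.369).

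Of the 6 genes, 0 passed limma's adjusted test between the groups, as did 0 of all 4907 genes (0%), and 1 (tgp1) had an unadjusted p under 0.05, against 7.11% of all genes. Groups did not overlap in 1 of the 6 (tgp1), against 23.3% of all genes. Without the array labelled tra1-1 replicate 3, 1 of the 6 (tgp1) passed, against 4.18% of all genes, and groups did not overlap in 2 (tgp1 and vtc4), against 47.6%. On the arrays labelled wild type, 2 of the 6 (tgp1 and csk1) differed from 0, against 11.4% of all genes. On the arrays labelled tra1-1, 0 of the 6 did, against 7.83%. With the array labelled tra1-1 replicate 3 left out, 4 of 6 (tgp1, csk1, pho4 and vtc4) differed from 0 on wild-type-labelled arrays, against 27.9%, and 2 of 6 (pho4 and csk1) on those labelled tra1-1, against 22.4%. The median difference over the 6 genes was 0.06, beside -0.0025 over all genes. These counts rest on only 6 genes and were not tested against the shares of all genes, so no difference from all genes is claimed. With either wild-type-labelled array left out, 0 genes in all differed from 0 in the limma fit, so the calls against 0 given here for that label need both arrays.

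The oligonucleotides of a gene can be read apart, since each spot is its own measurement. For tgp1 they differed between the groups by 0.46 and 0.90, the same sign, and for the pho84 probe pair by -0.82 and -0.98. The nc-pho1 oligonucleotides stood at 2.33 and 2.34 on the array labelled wild type replicate 1 and at 2.21 and 2.22 on that labelled replicate 2, close to equal. On the array labelled tra1-1 replicate 1 they were apart, at 0.74 and -0.24. For csk1 they moved in opposite directions on the array labelled tra1-1 replicate 3, at 0.29 and -0.97. For pho7 the second was above the first on every array, with -0.36, 0.00 and -0.42 against 0.54, 0.84 and 0.95 on tra1-1-labelled arrays. The mean absolute gap between the oligonucleotides of a gene over arrays was 0.90 for pho7, 0.70 for pho4, 0.55 for csk1, 0.47 for tgp1, 0.43 for vtc4 and 0.11 for pho8. Its median over 4673 genes with every value was 0.361, so 5 of the 6 genes had a wider gap than the median gene.

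**Figure D2:**
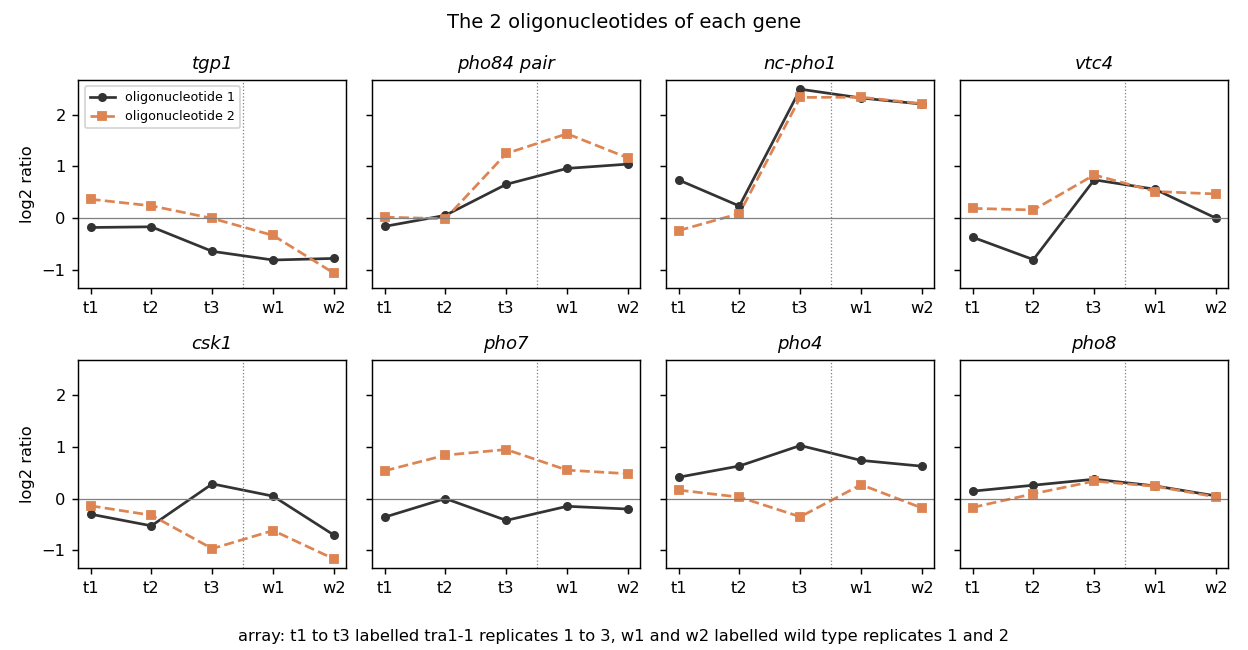
Log2 ratio of the first (black circles) and second (orange squares) oligonucleotide on the arrays labelled tra1-1 replicates 1 to 3 (t1 to t3) and wild type replicates 1 and 2 (w1, w2), with lines only joining points of 1 oligonucleotide. Both oligonucleotides of nc-pho1 and pho8 run close together on the wild-type-labelled arrays, whereas those of pho7 keep a gap that averages 0.90.

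pho842 encodes a phosphate transporter related to Pho84. It was at -0.33, -0.02 and 1.01 on tra1-1-labelled arrays and at 1.09 and 1.01 on the wild-type-labelled ones. The pattern over arrays was that of the pho84 probe pair, near or below 0 on the arrays labelled tra1-1 replicates 1 and 2 and about 1 on the others. Its difference was -0.83 ± 0.32 (SE, limma adjusted p = 0.685), and -1.23 ± 0.17 (SE, limma adjusted p = 0.000157) without the array labelled tra1-1 replicate 3. Its ratio on wild-type-labelled arrays passed the test against 0 (limma adjusted p = 0.0255), and was lost with a robust prior (adjusted p = 0.0773). The other transporter genes of this name, pho841 and pho843, were picked after their values were seen and lay on the opposite side. pho841 stood at -0.02, 0.15 and -1.05 on tra1-1-labelled arrays and at -0.57 and -0.83 on the wild-type-labelled ones, a difference of 0.39 ± 0.30 (SE, limma adjusted p = 0.811) and of 0.76 ± 0.17 (SE, limma adjusted p = 0.0113) without the array labelled tra1-1 replicate 3. pho843 differed by 0.42 ± 0.18 (SE, limma adjusted p = 0.685). The direction therefore varied among genes of transporters sharing a name.

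Of the 6 measured neighbours of pho84 and nc-pho1, 0 had a ratio of 1 or more above 0 on any array, and 5 had a negative mean on the wild-type-labelled arrays. On the array labelled tra1-1 replicate 3, say1 (-1.29) and prt2 (-1.19) were more than 1 below 0. prt2, the non-coding RNA upstream of pho84, which overlaps it in the reference table, stood at -0.27, -0.37 and -1.19 on tra1-1-labelled arrays and at -0.36 and -0.67 on the wild-type-labelled ones. Next on that side, SPOM_SPBC8E4.03 had 0.27, 0.23 and -0.63 on tra1-1-labelled arrays, against -0.62 and -0.52 on the wild-type-labelled ones, opposite in sign to the pho84 probe pair. Its difference was 0.53 ± 0.25 (SE), and 0.82 ± 0.16 (SE, limma adjusted p = 0.00425) without the array labelled tra1-1 replicate 3. SPOM_SPBC8E4.04 differed by 0.11. On the other side, fub2 stood at 0.31, -0.31 and 0.03 on tra1-1-labelled arrays and at 0.14 and 0.71 on the wild-type-labelled ones. Its difference of -0.42 had the sign of the pho84 probe pair, and without the array labelled tra1-1 replicate 3 its wild-type-labelled ratio was above 0 (limma adjusted p = 0.0464, and 0.132 with all 5 arrays). nrg1 and say1 differed by 0.24 and -0.18, and the differences of fub2, nrg1 and say1 did not pass with or without that array.

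Around tgp1 the differences of the nearest measured genes had its sign. SPOM_SPBC1271.08C stood at 0.19, 0.39 and -0.41 on tra1-1-labelled arrays, against -0.74 and -0.69 on the wild-type-labelled ones. SPOM_SPBC1271.07C stood at -0.44, -0.62 and -1.94 on tra1-1-labelled arrays, against -1.77 and -1.92 on the wild-type-labelled ones. Without the array labelled tra1-1 replicate 3 these genes differed by 1.01 (limma adjusted p = 0.000791) and 1.31 (limma adjusted p = 5.86e-05), against 0.81 for tgp1, and with all 5 arrays by 0.78 and 0.84, which did not pass. SPOM_SPBC1271.10C, on the other side, differed by 0.28. The farther genes osh41, pet802 and mug96 differed by 0.09, -0.25 and -0.12, and none of these 4 passed with or without that array.

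**Figure D3:**
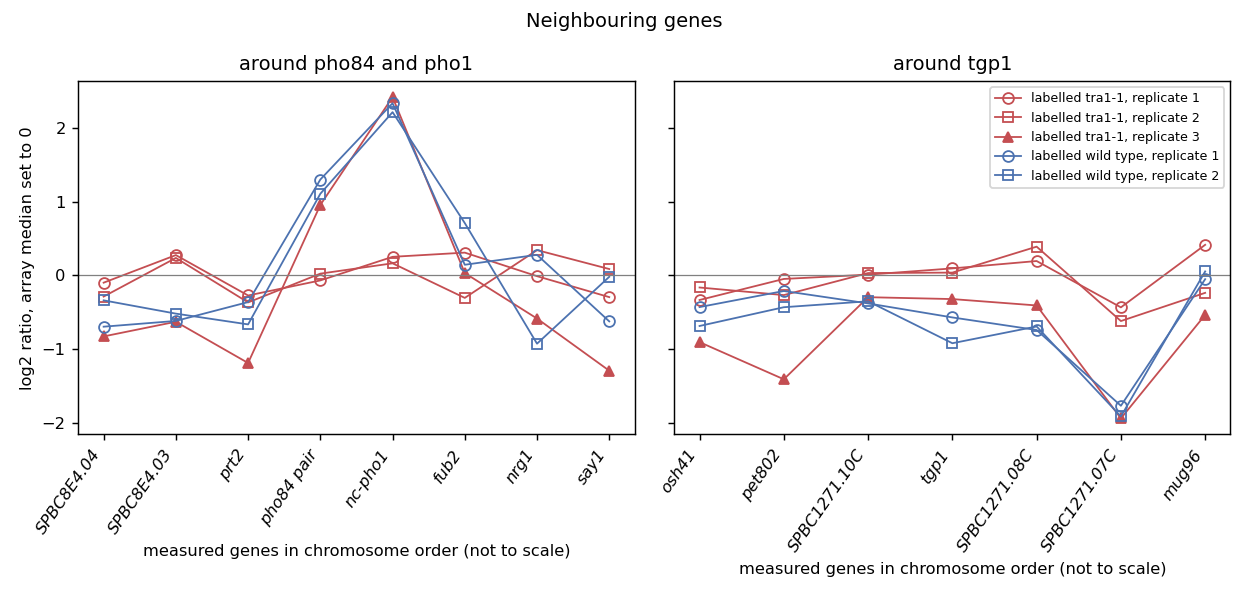
Log2 ratio (array median at 0) of measured genes in chromosome order, not to scale, around pho84 and pho1 (left) and tgp1 (right), with 1 line per array, red for arrays labelled tra1-1 and blue for those labelled wild type. The ratios at the pho84 probe pair and nc-pho1 stand above those of the plotted neighbours on the wild-type-labelled arrays and on that labelled tra1-1 replicate 3, and nc-pho1 reaches 2.42 on the array labelled tra1-1 replicate 3 (filled triangles).

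Likeness in pattern was described for the members and the pho84 probe pair where they ranged over at least 1 on the log2 scale across the 5 arrays, which was true of 2 of the 6 genes (tgp1 and vtc4) and of the pho84 probe pair, against 4.91% of all genes. nc-pho1 and pho842 had that range too, but are no members and were not compared in this way. Pearson's r over the 5 arrays was taken with each of 240 other genes of that range, which all share the same arrays. The closest to tgp1 were alr2, an alanine racemase gene (r = 0.988), SPOM_SPAC11D3.01C (0.977) and SPOM_SPCP20C8.02C (0.974). The closest to vtc4 were SPOM_SPAC4G8.09 (0.992), hob2 (0.99) and rsv2 (0.985). The closest to the pho84 probe pair were the galactose gene gal10 (0.999), the heat shock gene hsp9 (0.992) and the pheromone signalling regulator gene rgs1 (0.991). These are the top values among 240 genes over only 5 arrays, where a high r is easily reached. Whether any of these genes share regulation was not tested.

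The wider pathway was followed in 8 lists, in which 50 different genes were measured. With all 5 arrays 0 of the 50 passed the adjusted test between the groups, 19 were above 0 and 31 below, and the median difference was -0.06, beside -0.0025 over all genes. Of the lists, the Pho7 targets held tgp1 alone, transport and storage had a median difference of -0.19 over 6 genes (1 above and 5 below 0), and phosphatases one of 0.03 over 3 genes. The transport and storage list leaves out pho841 (0.39), pho843 (0.42) and nrf1 (-0.23), which were measured. At an unadjusted p under 0.05 there were 3 higher and 2 lower of the 50 on tra1-1-labelled arrays, against 7.11% of all genes, so the count is near that background. The higher ones were tgp1, the phosphatase gene pho2 (0.37) and the transcription termination gene rhn1 (0.51), and the lower ones pho842 and pgc1 (-0.44). Without the array labelled tra1-1 replicate 3, 2 of the 50 passed as higher (tgp1 and ipk1) and 1 as lower (pho842), against 4.18% of all genes, again near the background. ipk1, whose product makes the inositol hexakisphosphate from which the pyrophosphates are built, had ratios of -0.10, -0.02 and -1.30 on tra1-1-labelled arrays, against -0.91 and -0.68 on the wild-type-labelled ones. Its difference was 0.73 without that array (limma adjusted p = 0.0127) and 0.32 with it.

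Against 0, 5 of the 50 genes were higher (pho842, mcs2, asp1, seb1 and cft1) and 2 lower (tgp1 and csk1) on wild-type-labelled arrays, with 11.4% of all genes past that test. On tra1-1-labelled arrays 4 were higher (pho2, mcs2, seb1 and cft1) and 0 lower, with 7.83% of all genes past it.

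The inositol pyrophosphate list, which also holds enzymes of their precursors and the regulator gene pqr1, had a median difference of -0.01 over 8 genes, 4 above and 4 below 0. asp1, whose product both makes and removes these signals, differed by -0.28, and its ratio on wild-type-labelled arrays was 0.69 (limma adjusted p = 0.0193 against 0). Genes of RNA polymerase II phosphatases and of 3′ processing and termination, which set how far the non-coding RNAs run, had a median of -0.06 over 13 genes, with ssu72 at 0.42 and the termination factor gene rhn1 at 0.51 as the widest. Of these, seb1 stood at 0.82 on tra1-1-labelled arrays (limma adjusted p = 0.015 against 0) and 0.99 on the wild-type-labelled ones (0.00731), and cft1 at 0.51 (0.0399) and 0.59 (0.0267), so both were above 0 whatever the label.

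Genes of nuclear RNA elimination, which degrades such non-coding RNAs, had a group difference below 0 in 4 of 4 cases (median -0.19). Over all genes it was below 0 in 2483 of 4907. The widest differences of that list were those of the exosome gene rrp6 (-0.41) and of mmi1 (-0.21). The list named thiamine-repressible had a median of -0.16 over 7 genes, with thi9 at -0.37 and nmt1 at -0.36. It leaves out pho4, which is in the phosphatase list, and whether thiamine represses each of its genes was not checked. The list of Pho7 and kinases, which holds pho7 itself and not only kinase genes, had a median difference of 0.01 over 8 genes. Its widest differences were those of csk1 (0.28) and pef1 (-0.24). In it mcs2, a cyclin gene of the kinase that phosphorylates RNA polymerase II, stood at 0.73 on tra1-1-labelled arrays (limma adjusted p = 0.0281 against 0) and 0.58 on the wild-type-labelled ones (0.0371). The phosphatase gene pho2 was at 0.53 on tra1-1-labelled arrays (limma adjusted p = 0.029 against 0) and 0.17 on the wild-type-labelled ones. No difference in these lists passed the adjusted test with all 5 arrays.

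**Figure D4:**
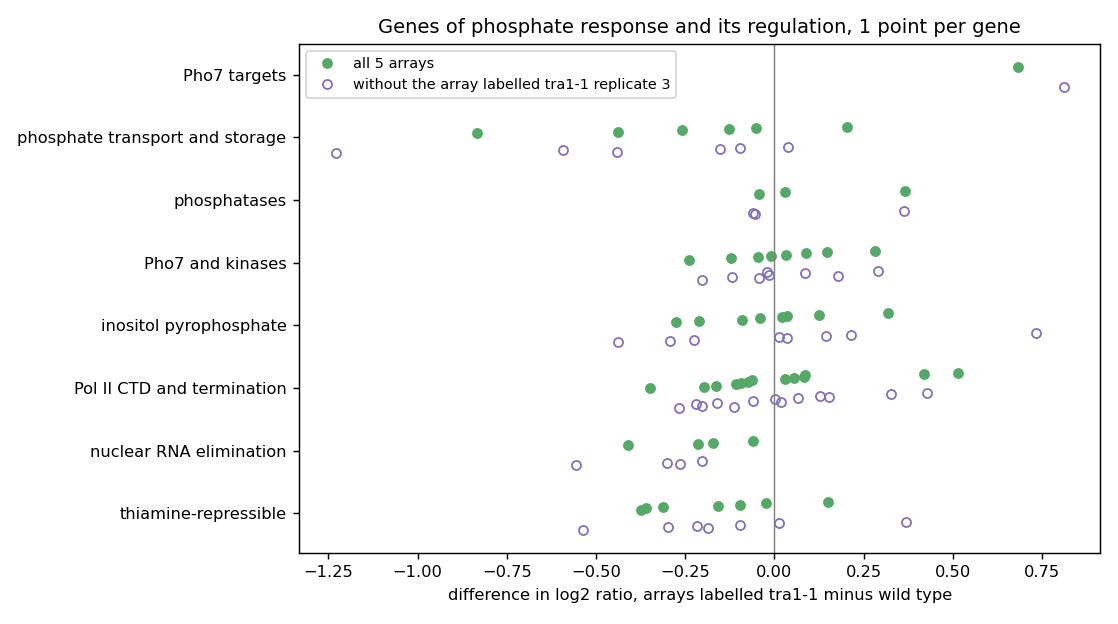
Difference in log2 ratio, arrays labelled tra1-1 minus wild type (x axis), of the measured genes of 8 lists (y axis), 1 point per gene, with all 5 arrays (filled green) and without the array labelled tra1-1 replicate 3 (open purple). Of these genes, pho842 (-0.83, and -1.23 without that array) and tgp1 (0.68 and 0.81) lie farthest out.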

How the data were processed

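The authors deposited 1 log ratio per probe and array, treated here as a log2 value. How they made it (log base, numerator channel, background correction, normalization) is not given in the sources read. Channel intensities were not analysed here, so signal over background and spot flags are unknown. The number of arrays limits the precision, with a standard error of 0.175 for the median gene's group difference.

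Deposited columns had medians other than 0, so each array was first centred on its median, then the 2 oligonucleotides of a gene were averaged. Names came from the platform annotation, with 1 symbol for 9632 probes, several for 44 and none for 182. Of 4929 genes and probe pairs, 22 with an array lacking a value were dropped. Differences between tra1-1-labelled and wild-type-labelled arrays were fitted over all remaining genes with limma (version 3.58.1; R version 4.3.3), 2-sided, using Benjamini-Hochberg adjustment and a threshold of 0.05. The same fit set wild-type-labelled ratios against 0, whereas tra1-1-labelled ratios were set against 0 in a fit of their own 3 arrays. The fits had been tested on simulated data with independent noise. Those data held no array that resembled the other group, so the test does not cover the doubt over labels.

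The members and lists were chosen with earlier results of these data known. Names follow a rule: the members, tra1, every list gene past a test with the 2 widest per list, the 3 nearest measured genes on each side of pho84 with pho1 and of tgp1, and the 3 genes most alike in pattern. Apart from nc-pho1, genes outside it are marked as picked after their values were seen, or stand behind a count of 5 or fewer. nc-pho1, which lies between pho84 and pho1 in the gene order, may also have been chosen with its values known. The RefSeq table of assembly ASM294v3 gave names, synonyms and gene order only. Alternatives tried were blocking by replicate number, uncentred values, quantile and scale normalization, stricter or looser treatment of missing spots, single oligonucleotides, a robust prior, array weights and dropping single arrays.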

Additional observations from a re-analysis of the deposited data

How the results depend on the processing

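For the 6 genes, the pho84 probe pair, nc-pho1 and pho842, differences between the groups kept their sign and their side of the threshold in 112 results under the alternatives, gained a call in 13, and in 10 changed sign without passing the test. Those of tgp1, vtc4, the pho84 probe pair, nc-pho1 and pho842 kept their sign in every setting tried. The depth of spots is unknown, so limits of signal could not be set, and 5 arrays with doubtful labels limit every difference.

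Genes past the test between the groups numbered 0 with all 5 arrays, 2 with scale normalization, 1 on the last oligonucleotide, 95 with array weights, and 0 to 205 when single arrays were left out, the 205 being without the array labelled tra1-1 replicate 3. With the replicate block there were 329, but same-numbered arrays did not deviate together from their group means (r = 0.0358 and -0.0323). Deviations of only 2 wild-type-labelled arrays mirror each other, so these values can neither show nor exclude a pairing by number. That block fit drops the array labelled tra1-1 replicate 3 from the difference, since it has no partner. In it tgp1 was 0.81 (limma adjusted p = 0.000834) and vtc4 -0.59 (0.024). With array weights tgp1 was 0.77 (limma adjusted p = 0.0318), the pho84 probe pair -1.11 (0.0125), nc-pho1 -1.81 (0.0144) and pho842 -1.10 (0.0256).

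Genes whose wild-type-labelled ratio differed from 0 numbered 559 with all arrays centred, 1561 with values as deposited, 856 with scale normalization, 1188 with array weights and 0 to 1367 when single arrays were left out. It was 0 without either wild-type-labelled array, where the lone array was assumed to vary like the others, and 1367 without the array labelled tra1-1 replicate 3. For tra1-1-labelled ratios the count of 384 became 2613 with values as deposited, 627 with quantile normalization, 672 with scale normalization, 662 on the first oligonucleotide, 887 with array weights and 65 to 1100 when single arrays were left out, with 140 without replicate 1, 65 without replicate 2 and 1100 without replicate 3.

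Differences that changed sign were pho8 at -0.061 with the replicate block, -0.0147 as deposited, -0.049 on the last oligonucleotide and -0.0328 with array weights, and on the first oligonucleotide pho4 at 0.0075 and pho7 at -0.0847. Leaving out single arrays gave -0.0687 to 0.13 for pho8, -0.19 to 0.10 for pho4 and -0.0435 to 0.61 for csk1. Wild-type-labelled ratios changed sign for pho7 (-0.14) and pho8 (-0.17) as deposited, and for pho7 on the first oligonucleotide (-0.17). Tra1-1-labelled ratios changed sign as deposited for pho4 (-0.0367), pho7 (-0.10), pho8 (-0.18), vtc4 (-0.23), the pho84 probe pair (-0.0547) and pho842 (-0.14). The shift as deposited follows from leaving the array medians below 0. They also changed sign on the first oligonucleotide for pho7 (-0.26) and vtc4 (-0.14), on the last for pho4 (-0.0518), tgp1 (0.20) and pho842 (-0.12), and with array weights for tgp1 (0.0197), vtc4 (-0.0807) and pho842 (-0.043). Without single arrays they ran over -0.14 to 0.0645 for tgp1, -0.21 to 0.35 for vtc4, -0.024 to 0.49 for the pho84 probe pair and -0.18 to 0.50 for pho842. Apart from the uncentred values, the cause of these changes was not tested.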
